A study of Mus musculus with 8 samples.

Results

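The pluripotent state of cultured mouse embryonic stem cells (ESCs) was compared between the ESC libraries numbered 2 and those numbered 1. Members were taken by their titles. Of the 8 RNA-seq libraries of the series, the 4 ESC libraries were used, 2 with number 1 and 2 with number 2, each number being present once in B/J cells and once in J/B cells, and all 26263 genes were compared. B/J cells were line BJE2, whose mother was C57BL/6 and whose father was JF1, and J/B cells were line JBE6, of the reciprocal cross. Both are hybrid male lines derived from blastocysts, and each cross was represented by that 1 line. All ESCs were kept without feeder cells on gelatin, in a serum-free medium (ESGRO complete plus) with LIF, BMP4 and an inhibitor of GSK3-β. The other 4 libraries, used here only for contrast, came from neural precursor cells (NPCs) made from the same lines by 12 days of *in vitro* corticogenesis, on Matrigel and with dorsomorphin homolog 1, a BMP receptor inhibitor. The labels do not say what the numbers 1 and 2 stand for, or that they mark separate cultures, so p-values measure the spread between these libraries, which may be technical. The study used 2 mRNA library kits and 2 Illumina instruments, and since the labels do not tell which library had which, kit, instrument and replicate number cannot be told apart.

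Mouse ESCs correspond to the naive epiblast of the blastocyst. They are held there by the core factors OCT4 (encoded by *Pou5f1*), SOX2 and NANOG together with naive factors such as ESRRB, TFCP2L1 and PRDM14, and by LIF, which acts through STAT3. When they leave this state they pass through a formative stage, marked by *Otx2*, *Fgf5* and *Pou3f1*, before lineage genes appear. Cells that receive Wnt, BMP and Nodal signals then switch on genes of the primitive streak, the site of gastrulation, led by *T* (brachyury) and *Mixl1*. GSK3 inhibition stabilizes β-catenin and so acts like a Wnt signal.

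Between 22537138 and 28094638 reads per ESC library were counted on genes. Levels are given below as CPM, the count of a gene relative to the size of its library after scaling by edgeR's TMM factors, in the order B/J number 1, B/J number 2, J/B number 1 and J/B number 2. Markers of ESCs and of the Y chromosome were read in all 4 libraries. *Pou5f1* was read at 1307 to 2008 CPM, against 17.2 to 49.99 CPM in the NPCs, and the Y-linked gene *Ddx3y* at 54.2 to 87.4 CPM. *Xist*, the RNA that silences the second X chromosome of female cells, was at 1.91, 0.252, 3.44 and 0.365 CPM (log2 fold change -3.07, adjusted p = 0.0239). *Tpbpa*, a trophoblast marker, and *S100a4*, a fibroblast marker, had no read in any of them, which allows at most 0.108 to 0.136 CPM per library at a limit of 3 reads.

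J/B number 1 stood apart from the other ESC libraries in a set of genes of its own. With at least 5 CPM and at least 4-fold above every other ESC library, 51 genes were high in it, against 0, 0 and 1 in the others, and 9 genes were low in it (*Ccnd1*, *Cd24a*, *Egr1*, *Esrp1*, *Fos*, *Ina*, *Myb*, *Mycn* and *Nefl*), against 0 in each of the others. Of the 51, 12 belong to the genes of the two-cell-like state, a rare condition of ESC cultures in which transcripts of the early embryo reappear. The summed level of the 23 genes of that list was 1.32, 0.324, 168 and 0.766 CPM. Its leading gene *Zscan4f*, a regulator of telomeres, was at 0.0733, 0, 20.4 and 0.0365 CPM. None of the 23 entered the test, because the filter on low counts asks for reads in at least 2 libraries. Other filters let them in, and with a mean of at least 1 CPM 12 of 12 were called lower with number 2, with no filter 15 of 22 and with all 8 libraries 2 of 3, so that genes of 1 library then count as calls for the number. Without J/B number 1 edgeR called 0 of 2 (0 at an unadjusted p below 0.05). Fibroblast markers summed to 7.99, 27.1, 71.1 and 18.98 CPM, with the collagen gene *Col1a1* at 0.513, 1.40, 23.9 and 2.59 CPM and *Col1a2* at 0, 0.144, 16.3 and 0.146 CPM, while *Dcn* and *Lum* did not pass 0.181 CPM. Germline genes summed to 125, 67.2, 312 and 96.0 CPM. Medians of the main lists are therefore given within B/J as well, where this library has no part.

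**Figure D1:**
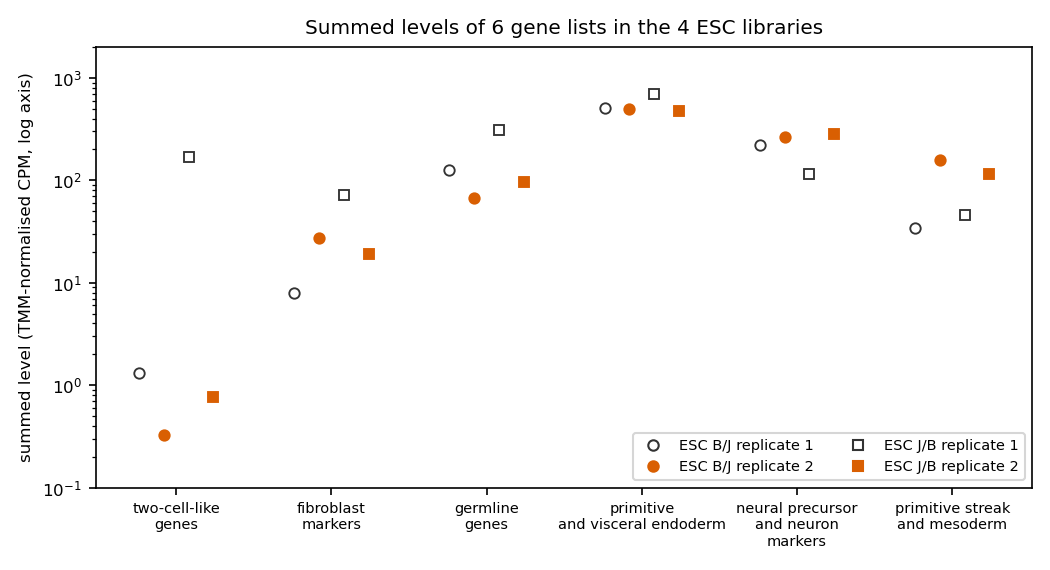
Summed level of 6 gene lists (TMM-normalised CPM, log axis) in the 4 ESC libraries, with circles for B/J, squares for J/B, open symbols for number 1 and filled symbols for number 2. The two-cell-like list lies at 168 CPM in J/B number 1 and at most at 1.32 CPM in the others, while the primitive streak list is higher in both libraries with number 2 (157 and 114 CPM) than in both with number 1 (34.5 and 46.2 CPM).

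The replicate number separated the ESC libraries more than the cross did. Over the 13814 genes tested, the correlation of log2 levels was 0.993 between the libraries with number 2 and 0.981 between those with number 1, although each pair came from different crosses, against 0.979 within B/J and 0.958 within J/B. The replicate number held 64.9% of the variation in log2 level among the 4 libraries, the cross 19.7% and their interaction 15.5%. With the cross as a block, edgeR's quasi-likelihood test called 1323 genes at a Benjamini-Hochberg adjusted p below 0.05, 632 higher with number 2 (4.58% of the genes tested) and 691 lower (5.0%). With library totals in place of TMM factors these were 725 and 466. The same fit called 1 gene for the cross, with 872 genes at an unadjusted p below 0.05, against 4269 for the number. Of the 1323 genes, 556 differed at least 2-fold (273 higher and 283 lower).

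The difference was also measured within each cross. Over all genes tested, called or not, 73.4% had the same sign in B/J and in J/B. The 1323 genes called all did, which the test fixes, since its 1 residual degree of freedom is the disagreement between the crosses. Across genes, which are not independent replicates, the log2 ratio of number 2 over number 1 in B/J correlated with that in J/B at r = 0.646 (Spearman's rho 0.613), and the 2 ratios share no library. The ratio reached 2-fold in 486 genes upwards and 328 downwards in B/J (3.52% and 2.37% of the genes tested), and in 810 and 935 in J/B (5.86% and 6.77%). It did so in both crosses in 274 genes upwards, 225 downwards and 10 in opposite directions. The calls rest on 4 libraries. A fit of all 8 libraries, whose spread includes that of the NPCs, called 398 genes (368 of them shared), and leaving out any 1 ESC library from it, which leaves 1 cross to compare the numbers in, left between 0 (1637 and 1661 genes at an unadjusted p below 0.05 without either J/B library) and 36.

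**Figure D2:**
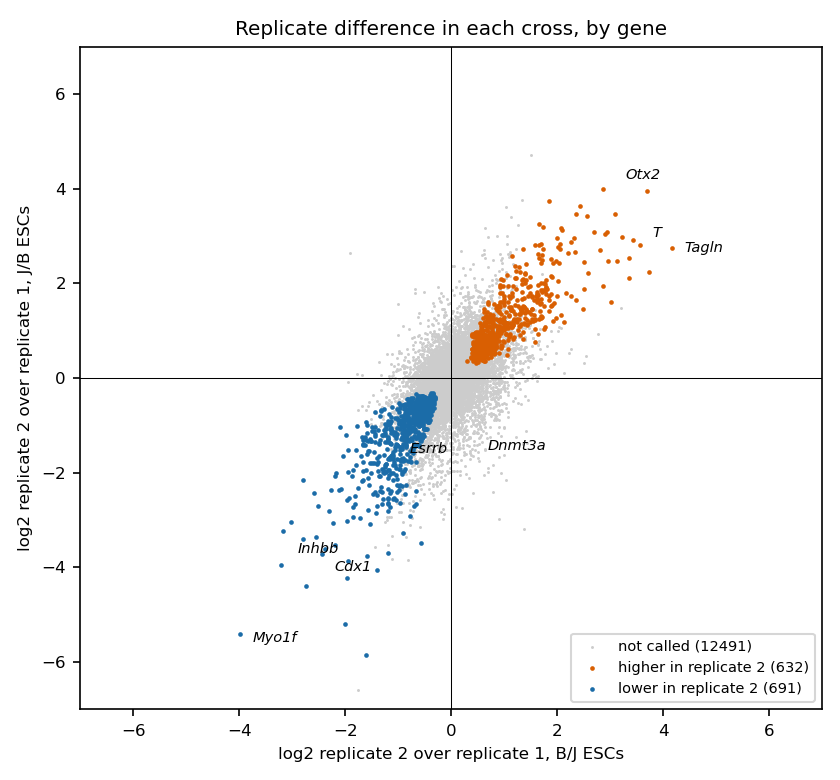
Log2 ratio of number 2 over number 1 in B/J ESCs (horizontal) and in J/B ESCs (vertical), 1 point per gene tested, with 0.5 CPM added to each level. The 632 genes called higher lie in the upper right and the 691 called lower in the lower left, and *Dnmt3a* is among the genes that are not called and differ in direction between the crosses.

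Several genes of naive pluripotency were lower with number 2. Of the 17 naive factors, all tested, 6 were lower, 1 was higher and 10 were not called, with a median log2 of -0.63 against 0.002 over all genes tested (-0.42 within B/J and -0.73 within J/B). *Esrrb*, a nuclear receptor that sustains self-renewal (chr12:86407887-86568409 in GRCm39, plus strand), was at 1011, 499, 874 and 418 CPM. Both libraries with number 2 lay below both with number 1, by -1.04 on the log2 scale with a standard error of 0.0880 (adjusted p = 0.00863). *Tet2*, which oxidizes 5-methylcytosine, was at 286, 131, 431 and 139 CPM (log2 fold change -1.38, standard error 0.146, adjusted p = 0.0139). *Prdm14*, a repressor of FGF signalling and of DNA methyltransferase genes, was at 43.6, 26.1, 53.9 and 21.6 CPM, a log2 fold change of -1.03. *Nr0b1* (-0.63), *Dppa5a* (-0.92) and *Tcl1* (-0.93), a coactivator of AKT kinase, were the other 3 called lower. *Klf2* went the other way, at 174, 293, 166 and 279 CPM (log2 fold change 0.75, adjusted p = 0.0168).

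The other naive factors did not pass the test. *Tfcp2l1* was at 663, 495, 1134 and 427 CPM and *Tbx3* at 134, 100, 316 and 107 CPM, so that J/B number 1 was the highest library for both, with adjusted p = 0.0794 and 0.0895. *Gbx2* (log2 fold change -0.75, adjusted p = 0.0578) and *Fbxo15* (-0.48, 0.0890) had all libraries with number 2 below those with number 1 too. *Zfp42* (0.08), *Klf4* (-0.07), *Klf5* (0.28), *Nr5a2* (0.19) and *Fgf4* (0.05) had small log2 differences, and *Dppa3* was low in J/B number 1, at 24.7, 33.2, 7.06 and 32.0 CPM. In the fit of all 8 libraries, 2 of the 17 were called lower and 1 higher.

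The core factors were called in both directions. Of 10 tested, 4 were lower, 1 was higher and 5 were not called, with a median log2 of -0.22 (-0.21 within B/J and -0.29 within J/B). *Pou5f1* (chr17:35816789-35822274, plus strand) was at 2008, 1384, 1883 and 1307 CPM, which is -0.53 on the log2 scale (standard error 0.0796, adjusted p = 0.0212). *Nanog* was at 722, 533, 824 and 469 CPM (-0.62, adjusted p = 0.0334). *Dppa2*, an activator of early embryonic genes, was at 194, 107, 299 and 118 CPM (-1.10), and *Tdgf1*, which encodes the NODAL coreceptor CRIPTO, at 993, 772, 1197 and 740 CPM (-0.53). *Sox2* (chr3:34704554-34706610, plus strand) was higher with number 2, at 389, 683, 399 and 604 CPM (log2 fold change 0.70, standard error 0.0993, adjusted p = 0.0186), with no overlap between the numbers. *Sall4* (-0.26), *Lin28a* (0.42), *Utf1* (0.39), *Dppa4* (-0.18) and *Zscan10* (0.10) were not called. In the fit of all 8 libraries, 1 of the 10 was called, lower.

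**Figure D3:**
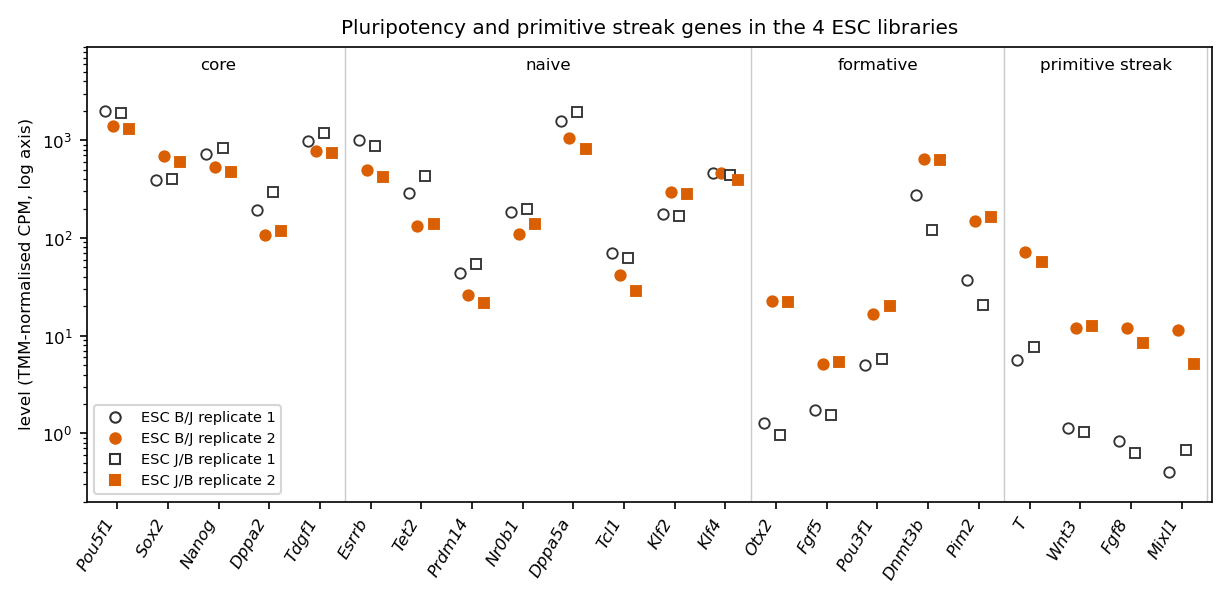
Levels of 22 genes (TMM-normalised CPM, log axis) in the 4 ESC libraries, with circles for B/J, squares for J/B, open symbols for number 1 and filled symbols for number 2. *Esrrb* and *Tet2* lie lower with number 2 in both crosses, while *Otx2*, *T*, *Wnt3*, *Fgf8* and *Mixl1* lie higher, and *Klf4* does not separate the numbers.

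Several formative genes were higher with number 2. Of 11 tested, 5 were higher, none was lower and 6 were not called, with a median log2 of 1.02 (0.915 within B/J and 1.52 within J/B). *Otx2*, a homeobox factor that redirects OCT4 to new enhancers on exit from the naive state (chr14:48894099-48911276, minus strand), was at 1.28, 22.47, 0.950 and 21.9 CPM. Its log2 fold change, 4.31 with a standard error of 0.263 (adjusted p = 0.00753), was among the largest in this comparison, and it was nearly the same in both crosses. *Fgf5* was at 1.72, 5.18, 1.54 and 5.36 CPM (log2 fold change 1.69, adjusted p = 0.0395) and *Pou3f1*, which encodes OCT6, at 5.06, 16.7, 5.70 and 20.2 CPM (1.77, adjusted p = 0.0151). *Pim2*, a kinase gene, was at 37.4, 151, 20.6 and 165 CPM (2.50, adjusted p = 0.0170). *Dnmt3b*, a *de novo* DNA methyltransferase gene, was at 278, 636, 122 and 631 CPM, a log2 fold change of 1.78 (adjusted p = 0.0412).

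*Dnmt3a*, the other *de novo* methyltransferase gene, did not follow *Dnmt3b*. It was at 91.7, 126, 390 and 136 CPM, higher with number 2 in B/J and lower in J/B, where number 1 was the library that stood apart (adjusted p = 0.587). *Lef1* (log2 fold change 1.02, adjusted p = 0.0901), *Zic2* (0.52), *Zic5* (0.38), *Sox3* (0.65) and *Foxd3* (0.42) were not called. In the fit of all 8 libraries, 2 of the 11 formative genes were called, both higher. Since these are bulk libraries, more cells in a formative state and more of these transcripts in each cell cannot be told apart.

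Several primitive streak genes were higher with number 2, from low levels with number 1. Of 12 genes, 11 were tested, and 6 of these were higher, none was lower and 5 were not called. The median log2 was 1.58 (1.53 within B/J and 1.06 within J/B). Over the members with a mean of at least 1 CPM it was 3.28. *Fgf8*, *Mixl1* and *Lhx1* reached that mean only through number 2, so this cut itself favours a higher median. Promoters of 3 of the 6 are shown because these genes were higher together, and because *T* is a Wnt target and *Wnt3* encodes a Wnt ligand. Each is the 200 bases of GRCm39 before the start of the gene's canonical GENCODE vM39 transcript, read 5′ to 3′ on the gene's strand, from chr17:8653055-8653254 (plus strand) for *T*, chr1:180524600-180524799 (minus strand) for *Mixl1* and chr11:103664776-103664975 (plus strand) for *Wnt3*. Capitals mark CTTTGAT or CTTTGAA on either strand, the letters that TCF/LEF proteins, the partners of β-catenin, bind.
T: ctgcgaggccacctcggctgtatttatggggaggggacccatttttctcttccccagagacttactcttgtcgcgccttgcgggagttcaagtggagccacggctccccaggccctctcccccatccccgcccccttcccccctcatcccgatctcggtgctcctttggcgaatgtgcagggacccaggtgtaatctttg
Mixl1: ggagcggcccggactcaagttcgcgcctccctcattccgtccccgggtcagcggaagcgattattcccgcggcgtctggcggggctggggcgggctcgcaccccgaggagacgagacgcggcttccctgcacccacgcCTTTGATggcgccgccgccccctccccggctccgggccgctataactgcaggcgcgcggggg
Wnt3: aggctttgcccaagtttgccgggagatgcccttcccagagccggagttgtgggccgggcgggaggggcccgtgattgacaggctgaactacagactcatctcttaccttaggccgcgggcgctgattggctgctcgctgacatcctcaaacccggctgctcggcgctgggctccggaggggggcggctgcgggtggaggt
Among the 6 genes, *Evx1* and *Lhx1* included, 1 had either motif in this window, *Mixl1*, against 561 of 12879 protein-coding genes tested (4.36%). A match is a description of the letters and not a bound site, and the windows without one say nothing about sites elsewhere.

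*T*, the brachyury factor of the streak and notochord, was at 5.57, 71.0, 7.60 and 56.3 CPM (log2 fold change 3.28, standard error 0.230, adjusted p = 0.00835). *Wnt3*, the ligand that is needed for the streak to form, was at 1.14, 12.1, 1.04 and 12.6 CPM (log2 fold change 3.50, standard error 0.305, adjusted p = 0.00863). *Fgf8*, which streak cells need in order to migrate, was at 0.843, 12.1, 0.634 and 8.50 CPM (3.79, adjusted p = 0.00863). The 3 genes therefore separated the numbers with no overlap in both crosses. *Mixl1*, a homeobox gene of mesendoderm, was at 0.403, 11.4, 0.679 and 5.07 CPM (3.85, adjusted p = 0.0226), and *Evx1* at 5.64, 12.4, 4.53 and 9.999 CPM (1.14, adjusted p = 0.0426). *Lhx1*, a homeobox gene of the organizer and mesoderm, had 0 and 2 reads with number 1 against 129 and 56 with number 2. Pooled over the crosses and scaled to library size this was an 82.8-fold ratio, with a 95% counting interval of 22.6 to 688.8 that covers counting error only.

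Not all streak and mesoderm genes took part. *Eomes* was at 17.0, 26.4, 25.9 and 16.4 CPM, *Gsc* at 1.54, 1.66, 0.860 and 1.53 CPM and *Tbx6* at most at 0.756 CPM, none of them called. *Mesp2* (log2 fold change -0.99) and *Msgn1* (1.58) were not called either, and *Mesp1*, with 1, 44, 0 and 5 reads, was left out by the filter on low counts. In the fit of all 8 libraries, 4 of 12 streak genes were called, all higher.

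Targets of the signals that the medium supplies or acts on changed unevenly. Of 9 BMP targets tested, 5 were higher and none was lower (median log2 0.77, and 0.997 within B/J), with 4 of 10 higher in the fit of all 8 libraries, 3 with RLE factors and 2 with length and GC offsets. *Id1*, an inhibitor of basic helix-loop-helix factors that BMP4 induces in ESCs, was at 29.0, 64.4, 28.2 and 78.5 CPM (log2 fold change 1.31, adjusted p = 0.0126). *Id2* was at 9.12, 34.2, 4.34 and 64.5 CPM (2.85), *Msx1* at 0.550, 8.68, 1.27 and 9.38 CPM (3.39), and *Id4* (1.24) and *Smad7* (0.77) were the others. *Id3*, the most abundant of the *Id* genes with number 1, was at 95.8, 86.6, 80.4 and 92.1 CPM and was not called. Of 12 Wnt targets tested, 3 were higher and 1 was lower (median log2 0.46, with 0.39 within B/J and 0.29 within J/B), and as many were called in the fit of all 8 libraries. Besides *T*, the higher ones were *Sp5*, at 6.45, 22.4, 2.85 and 18.5 CPM (2.22, adjusted p = 0.0171), and the homeobox gene *Cdx2*, at 2.49, 8.79, 1.99 and 7.92 CPM (1.90, adjusted p = 0.0238). *Cdx1* was lower, at 97.8, 17.6, 138 and 9.999 CPM (-3.11, standard error 0.341, adjusted p = 0.0181), so that these 2 *Cdx* genes differed in opposite directions.

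In the Nodal pathway, 2 of 7 genes were higher and 2 lower, but 1 and 0 with RLE factors, 2 and 0 with library totals and 0 in either direction in the fit of all 8 libraries (5 at an unadjusted p below 0.05), against 2 and 2 by limma-voom and 3 and 2 by DESeq2. The ligand gene *Nodal* was at 82.5, 53.3, 97.2 and 71.7 CPM (log2 fold change -0.53, adjusted p = 0.0441) and its coreceptor gene *Tdgf1* was lower too, while *Skil* (0.84) and *Smad7* (0.77), which encode feedback inhibitors of SMAD signalling, were higher. Of 15 FGF-ERK targets, 2 were higher, *Dusp4* (8.50, 31.0, 6.29 and 24.7 CPM, log2 fold change 1.92) and *Fosl1*, and *Etv4* was lower, at 112, 61.9, 125 and 46.6 CPM (-1.14). With all 8 libraries 1 was called, lower. The median of this list was 0.15 within B/J and -0.08 within J/B. Of 11 genes of the LIF-STAT3 pathway, edgeR called *Junb*, at 20.3, 47.4, 14.2 and 42.4 CPM (1.40, adjusted p = 0.0139), while limma-voom called 1 higher and 2 lower and DESeq2 1 in each direction. It is also an immediate early gene, a class that responds to serum and handling within minutes, of which 4 of 11 were higher (*Jun*, *Junb*, *Egr2* and *Dusp1*) with a median log2 of 1.21 (1.04 within B/J), and 2 of 12 with all 8 libraries. *Jun* was at 5.57, 19.3, 3.03 and 21.1 CPM. *Egr1* was at 187, 224, 45.8 and 210 CPM, low in J/B number 1, and was not called.

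Several epithelial genes were higher with number 2. Of 10 adhesion and mesenchymal genes tested, 5 were higher and 1 was lower (median log2 0.84, and 0.52 within B/J). *Cdh1*, which encodes E-cadherin, was at 363, 534, 256 and 523 CPM (log2 fold change 0.79, adjusted p = 0.0292) and *Epcam* at 51.2, 113, 36.8 and 101 CPM (1.30, adjusted p = 0.0105). The claudin genes *Cldn6* (15.7, 67.3, 5.25 and 51.4 CPM), *Cldn7* (2.49, 15.7, 0.905 and 17.0 CPM) and *Cldn4* (25.4, 48.4, 15.0 and 46.7 CPM), which encode tight junction proteins, had log2 fold changes of 2.65, 3.34 and 1.27. *Zeb1*, a repressor of epithelial genes, was lower, at 26.8, 14.1, 43.0 and 17.1 CPM (-1.13, adjusted p = 0.0226). With all 8 libraries, 4 of the 10 were higher and none was lower. *Vim* (222, 188, 192 and 183 CPM), *Cdh2*, *Zeb2* and *Snai1* were not called.

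Markers of other lineages were higher in part. Of 8 trophoblast markers tested, 3 were higher (*Cdx2*, *Hand1* and *Ascl2*), with *Ascl2* at 1.17, 4.57, 0.996 and 4.49 CPM and *Hand1* at 0.110, 2.63, 0.272 and 1.93 CPM, and *Hand1* also acts in heart mesoderm. *Elf5*, which defines trophoblast stem cells, was at most at 0.147 CPM. *Krt8* was at 5.68, 41.8, 10.2 and 19.9 CPM (adjusted p = 0.0739). The median log2 of 6 fibroblast markers tested was 1.18 within B/J and -1.805 within J/B. Of these, the actin-binding gene *Tagln* (0.330, 14.4, 0.950 and 9.23 CPM) and the smooth muscle actin gene *Acta2* (0.0366, 2.56, 0.317 and 2.52 CPM) were higher and *Pdgfrb* was lower (4.10, 1.51, 9.68 and 1.24 CPM). With all 8 libraries 1 of 12 was called, higher. The lower call was also lost with RLE factors and with length and GC offsets. Of 8 neural markers, *Sox11* was higher, at 42.0, 103, 24.03 and 124 CPM (log2 fold change 1.82, adjusted p = 0.0298), while *Sox1*, which marks committed neuroectoderm, was at 4.47, 1.80, 2.58 and 1.90 CPM and was not called. EdgeR called 0 of 14 markers of primitive and visceral endoderm (1 at an unadjusted p below 0.05), as did limma-voom, DESeq2 called 1 lower, and *Gata4*, *Gata6* and *Sox17* stayed between 0.293 and 2.96 CPM in all 4 libraries. Of 3 blood and endothelial markers tested, *Pecam1*, which naive ESCs also express, was lower (55.1, 29.2, 86.5 and 35.3 CPM).

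**Figure D4:**
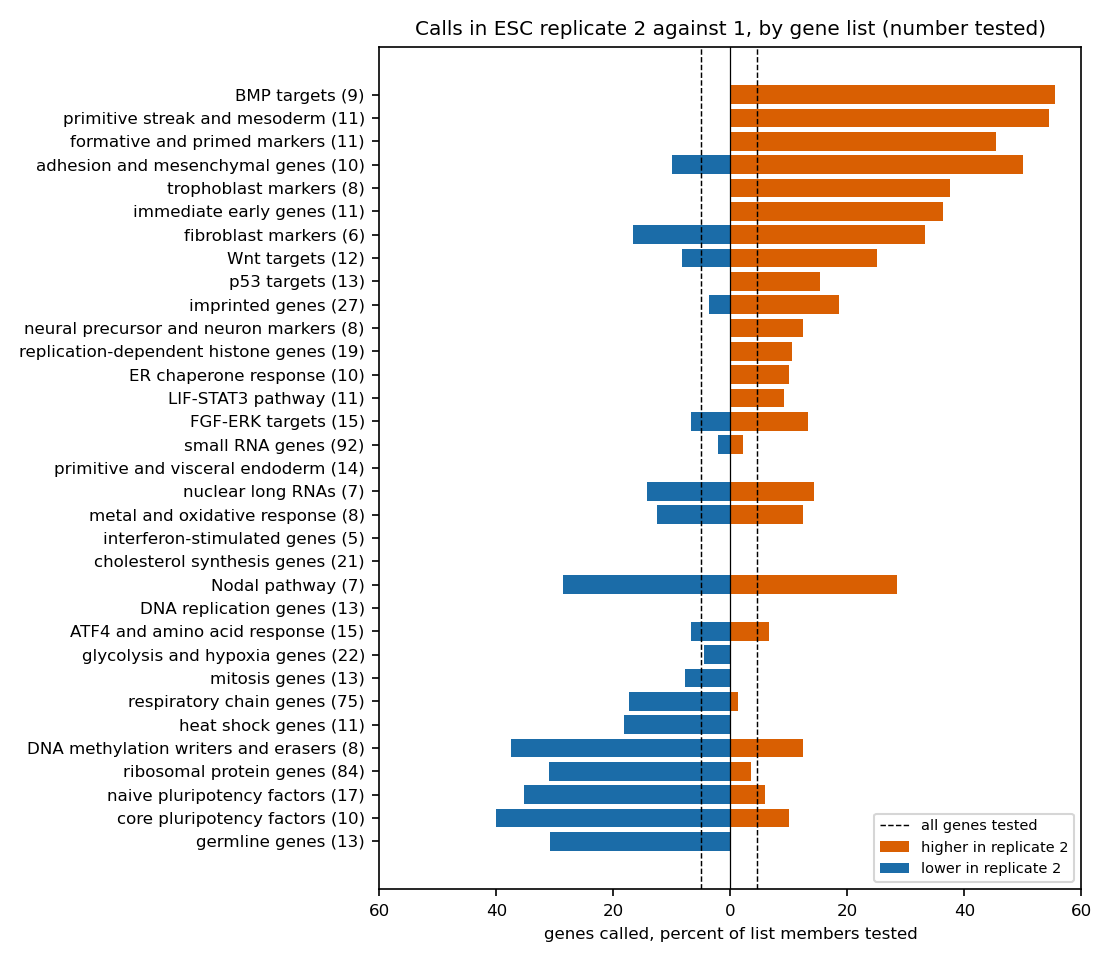
Genes called higher (to the right) or lower (to the left) with number 2 as percent of the members tested, for each gene list with at least 5 members tested, the number tested standing in brackets, and with dashed lines at 4.58% and 5.0% for all genes tested. BMP targets (5 of 9 higher), primitive streak genes (6 of 11) and formative genes (5 of 11) lie at the top, and germline genes (4 of 13 lower), core factors and naive factors at the bottom.

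Among genes of DNA methylation 4 of 8 were called, and among the germline genes it silences 4 of 13. Of the 8 writers and erasers of DNA methylation, *Tet1* (572, 370, 807 and 493 CPM, log2 fold change -0.67), *Tet2* and *Uhrf1* (640, 509, 580 and 399 CPM, -0.44) were lower and *Dnmt3b* was higher. *Uhrf1* encodes the partner that brings the maintenance enzyme DNMT1 to replicated DNA. Both in the fit of all 8 libraries and without the cross term, 1 of the 8 was called, lower. Of the 13 germline genes tested, 4 were lower and none was higher (median log2 -0.77, but -0.12 within B/J), with 2 lower in the fit of all 8 libraries and 1 without the cross term. *Tex19.1* was at 46.6, 17.2, 74.4 and 22.6 CPM (-1.58, adjusted p = 0.00941) and *Dazl*, an RNA-binding factor of germ cells, at 6.52, 2.77, 28.3 and 4.42 CPM (-1.99). *Stra8*, the gate of meiosis, had 31, 1, 679 and 1 reads, so that the ratio rests mostly on J/B number 1. Of 27 imprinted genes tested, 5 were higher (*Rian*, *Peg10*, *Snrpn*, *Cdkn1c* and *Gnas*) and *Plagl1* was lower, with 1 in each direction in the fit of all 8 libraries. *Cdkn1c*, an inhibitor of cell cycle kinases, was at 9.93, 25.7, 9.23 and 40.2 CPM (1.75, adjusted p = 0.0182), and *Plagl1* at 39.3, 18.4, 82.4 and 35.6 CPM (-1.15, adjusted p = 0.0139). Of the 5 genes of the *Peg13*-*Kcnk9* domain, *Peg13* (4.98, 2.84, 3.71 and 5.91 CPM), *Trappc9*, *Chrac1* and *Ago2* were not called, and *Kcnk9*, with at most 0.0730 CPM, was not tested.

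The largest differences by rule were the 12 in each direction among genes called that averaged 1 CPM or more and had 1 sign in both crosses. Besides *Lhx1*, *Otx2*, *Tagln*, *Acta2*, *Mixl1* and *Fgf8*, the higher 12 were *Enpp2*, *Galnt3*, *Mab21l2*, *Cebpb*, *Alox15* and *Pcdh7*, with log2 fold changes between 3.75 and 4.66. *Enpp2*, which encodes autotaxin, the enzyme that makes lysophosphatidic acid, was at 0.330, 5.51, 0.317 and 12.5 CPM (adjusted p = 0.0104). *Cebpb*, a transcription factor gene, was at 0.256, 7.63, 0.634 and 8.10 CPM, and the protocadherin gene *Pcdh7* at 0.366, 8.35, 0.860 and 7.44 CPM. All 12 were at or below the 1.28 CPM of *Otx2* in both libraries with number 1.

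The lower 12 included genes read well in both libraries with number 1. *Myo1f*, a myosin gene (chr17:33774681-33826769, plus strand), was at 17.1, 0.612, 56.4 and 0.839 CPM (log2 fold change -5.51, standard error 0.346, adjusted p = 0.00757). *Inhbb*, which encodes the βB subunit of inhibins and activins, was at 19.5, 1.66, 39.0 and 2.04 CPM (-3.91, standard error 0.260, adjusted p = 0.00753). *Hal*, a histidine-degrading enzyme gene, was at 15.5, 1.91, 52.7 and 2.01 CPM (-3.89). *Cfap206* (2.24, 0.180, 30.2 and 0.328 CPM), *Klb* (1.10, 0.108, 11.4 and 0.219 CPM), *Megf11*, *Ddr2* and *Stra8* were higher in J/B number 1 than in B/J number 1. *Cyp2e1* had 69, 0, 53 and 1 reads, and *Platr5*, a non-coding transcript named for pluripotency, had 12, 0, 96 and 0 reads, which makes it at least 40.2-fold lower with number 2 over both crosses, at a floor of 3 reads. The other 2 were *Rn7sk*, a small nuclear RNA without a poly(A) tail, at 2.16, 0.180, 15.6 and 0.365 CPM, and *Gm12657*, at 3.41, 0.180, 3.71 and 0.146 CPM. Both libraries with number 2 were lower in NPCs too, with *Rn7sk* at 3.45, 0.319, 2.66 and 0.517 CPM (adjusted p = 0.0728), *Gm12657* at 3.53, 0.287, 3.66 and 0.323 CPM (adjusted p = 0.0506) and *Cfap206* at 3.88, 0.447, 4.10 and 0.614 CPM (adjusted p = 0.0759).

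Among housekeeping classes, ribosomal protein genes held the most calls, all but 3 of them lower. Of 84 ribosomal protein genes tested, 26 were lower and 3 were higher, with a median log2 of -0.26 (-0.19 within B/J), and *Rps18* was at 1666, 961, 1574 and 875 CPM (log2 fold change -0.82, adjusted p = 0.0105). Of 75 respiratory chain genes, 13 were lower and 1 was higher (median -0.17, and -0.14 within B/J). In the fit of all 8 libraries 5 ribosomal protein genes and 0 of 76 respiratory chain genes were called lower (40 and 30 in either direction at an unadjusted p below 0.05), and with length and GC offsets 18 of 84 and 3 of 59 were. Limma-voom called 30 and 18 lower, and DESeq2 21 and 10. Against 5.0% of all genes tested, heat shock genes had 2 of 11 lower (*Hspa8* and *Hsp90ab1*). The glycolysis and hypoxia list had 1 of 22 (*Aldoa*) and the mitosis list 1 of 13 (*Mki67*), both near the share of all genes. These 3 lists had 0 calls in the fit of all 8 libraries (2, 3 and 1 genes at an unadjusted p below 0.05) and with length and GC offsets (3, 5 and 5), and DESeq2 called only the 1 in mitosis, while limma-voom called 2, 3 and 1. EdgeR called 0 of 13 DNA replication genes (6 at an unadjusted p below 0.05, and 1 called by limma-voom), 0 of 21 cholesterol synthesis genes (3, and 0 called) and 0 of 5 interferon-stimulated genes (1, and 0 called), and DESeq2 called 0 in these 3 lists. Of 13 p53 targets, 2 were higher (*Btg2* and *Phlda3*). Of 15 genes of the ATF4 list, *Ddit4*, an mTOR inhibitor gene, was higher at 18.0, 48.1, 19.9 and 52.8 CPM (1.41). *Shmt2* was lower (-0.73), and the median log2 of that list was 0.04. Of 10 endoplasmic reticulum chaperone genes, *Manf* alone was called, higher at 59.1, 129, 66.2 and 123 CPM (1.01), with a list median of 0.24. Of 8 metal and oxidative response genes, *Gclm* was higher (0.71) and *Srxn1* lower (-1.58).

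Some features of the transcripts moved with the number too. Of 94 processed or other pseudogenes tested, 22.3% were lower, against 4.83% of 12879 protein-coding genes. *Rpl31-ps12*, a pseudogene chosen after its values were seen, was at 18.4, 1.58, 18.6 and 1.53 CPM in ESCs and at 13.3, 1.18, 10.5 and 0.969 CPM in the NPCs in the same order. *Lars2*, the mitochondrial leucyl-tRNA synthetase gene, likewise chosen, was at 799, 114, 824 and 78.0 CPM in ESCs and at 231, 67.3, 257 and 56.4 CPM in NPCs. The median log2 fold change over 5 equal groups of genes by GC content was 0.16, 0.04, -0.05, -0.14 and -0.02 from the lowest to the highest GC. Within B/J it was 0.15, 0.04, -0.06, -0.13 and -0.05 and within J/B 0.15, 0.03, -0.04, -0.12 and 0.02, so that the group of highest GC differed in sign between the crosses. Over 5 groups by length it lay between -0.06 and 0.04. With smooth terms for length and GC in the fit, 861 genes were called. The part of library preparation in these differences was not tested.

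The numbers were compared in NPCs as well. In a fit of all 8 libraries, in which 16399 genes were tested, edgeR called 55 genes between the NPC libraries with number 2 and number 1 (0.335%), 39 higher and 16 lower, with 3360 at an unadjusted p below 0.05. The same fit called 398 genes in ESCs, with 4006 at an unadjusted p below 0.05. Of the 1323 genes called with the 4 ESC libraries, 17 were among the 55 called in NPCs, 8 in the same direction. Of the 632 genes higher in ESCs with number 2, 319 had a log2 fold change of the same sign in NPCs, and so had 381 of the 691 lower. The difference itself, ESCs minus NPCs, was called for 223 genes (1.36%). Limma-voom called 0 (3300 at an unadjusted p below 0.05), and edgeR 0 without any 1 of the ESC libraries (1897 to 2668), so this count depends on the tool and on each library.

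The core and naive factors that were called in NPCs were all higher with number 2. There, 3 of 10 core factors (*Dppa2*, *Dppa4* and *Tdgf1*) and 4 of 17 naive factors (*Nr5a2*, *Dppa5a*, *Fgf4* and *Tcl1*) were higher with number 2, none was lower, and the log2 fold change was above 0 for 16 of the 17 naive factors. *Dppa5a*, at 1566, 1046, 1938 and 815 CPM in ESCs, was at 16.8, 76.6, 6.22 and 24.7 CPM in NPCs. *Tcl1*, at 70.7, 42.1, 61.9 and 28.5 CPM in ESCs, was at 0.883, 5.17, 0.102 and 1.002 CPM in NPCs. *Esrrb* was at 9.69, 27.4, 5.45 and 9.72 CPM in NPCs (log2 fold change 1.18, adjusted p = 0.0549), and its difference between the stages, ESCs minus NPCs, was -2.23 on the log2 scale (adjusted p = 0.0299). *T* was lower with number 2 in both crosses of the NPCs, at 14.6, 8.52, 145 and 36.6 CPM (adjusted p = 0.0984), with a difference of 4.68 between the stages (adjusted p = 0.0293). *Otx2* was at 21.4, 43.6, 38.5 and 60.7 CPM in NPCs, and its difference between the stages was 3.46 (adjusted p = 0.0291). With the 4 NPC libraries alone, edgeR called 0 genes for the number (3023 at an unadjusted p below 0.05) and limma-voom 305.

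**Figure D5:**
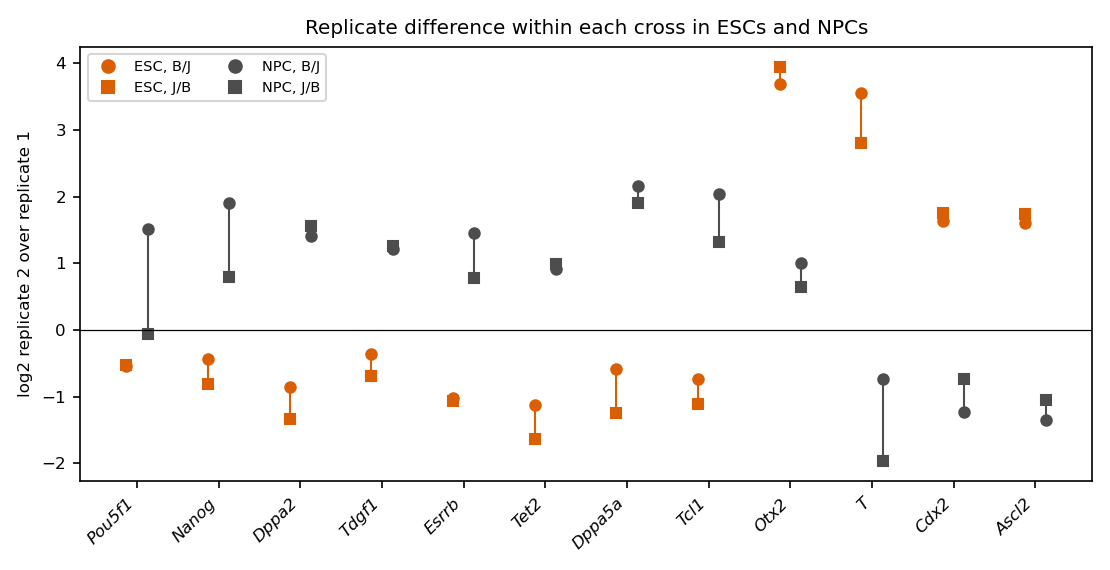
Log2 ratio of number 2 over number 1 within B/J (circles) and within J/B (squares) for 12 genes, in ESCs (orange) and in NPCs (grey), with a line joining the 2 crosses. The ratios of *Dppa2*, *Tdgf1*, *Esrrb*, *Tet2*, *Dppa5a* and *Tcl1* lie below 0 in ESCs and above 0 in NPCs in both crosses, and those of *T*, *Cdx2* and *Ascl2* above 0 in ESCs and below 0 in NPCs.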

How the data were processed

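RNA-seq of poly(A) RNA was analysed in ESCs and, for contrast, in NPCs at day 12, with 2 libraries in each of 4 groups. The authors aligned paired reads to a mouse genome with SNPs masked, kept properly paired reads of mapping quality 20 or more, and deposited raw counts of reads per gene, summed over both alleles. The submitters' processing notes name TopHat2, HTSeq, DESeq2, edgeR and the build mm39, without roles. Whether counting used strand is not given in the sources used. The 5 closing entries of each file, which name no gene, were left out. Reads on no gene came to 5.76% to 8.44% of the ESC libraries.

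The counts were tested in R 4.3.3 with edgeR 4.0.16 (TMM, filterByExpr with a minimum count of 10, robust quasi-likelihood) in a model with terms for cross and replicate number over the 4 ESC libraries. Adjusted p-values are Benjamini-Hochberg values over all genes tested, and standard errors are derived from the F statistic. NPC values and stage differences came from a fit of all 8 libraries, which also scaled the NPC levels. Ratios within a cross add 0.5 CPM and have no test. Depth limits the precision, 1 read being worth 0.036 to 0.0453 CPM. Alternatives were RLE factors, library totals, DESeq2 1.42.0, limma-voom (limma 3.58.1), other filters, no robust estimation, no cross term, length and GC offsets, a 2-fold minimum, leaving out each ESC library and, added after seeing the data, protein-coding genes only. The main fit of the 4 ESC libraries was tested on simulated data, and the other fits were not.

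Genes and promoters were placed by GENCODE vM39 on GRCm39, which gave a length for 97.6% of the genes tested. Genes were named by rule, namely the 12 largest in each direction that averaged 1 CPM or more with 1 sign in both crosses, all core, naive and formative factors, up to 4 members with the smallest p of each other list, the genes of the *Peg13*-*Kcnk9* domain and the 3 most opposed between crosses with a mean of at least 10 CPM, 1 of which is not reported here. Further list members are named to complete a count, and were chosen after their values were seen. The comparison and the 36 lists were chosen with earlier results of these data known. The allelic data were not analysed here.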

Additional observations from a re-analysis of the deposited data

Results flagged for a closer look

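The difference between the numbers had opposite signs in the 2 crosses for 11 genes of the naming rule, leaving out interferon-stimulated and Y-linked genes, each from 1 pair of libraries per cross, and this contrast was not tested. The log2 ratio of number 2 over number 1 in J/B minus that in B/J was 2.0 for *Ntn1*, the netrin gene (375, 200, 68.0 and 146 CPM) and -1.60 for *Cald1*, the caldesmon gene (12.8, 23.0, 39.4 and 22.8 CPM). It was -3.89 for *Col1a1*, -1.97 for *Dnmt3a*, 1.32 for *Peg13*, -1.0 for *Foxd3*, 0.70 for *Zscan10*, -0.70 for *Klf5*, 0.36 for *Chrac1*, -0.17 for *Fgf4* and -0.15 for *Klf4*.

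The difference between the numbers in ESCs was tested against that in NPCs in the fit of all 8 libraries, and 34 named genes passed, none of which did so with limma-voom. The log2 value, ESCs minus NPCs, was above 0 for *Tagln* (4.72), *T* (4.68), *Fgf8* (4.54), *Hand1* (4.51), *Cebpb* (4.48), *Galnt3* (4.34), *Otx2* (3.46), *Pcdh7* (3.40), *Pim2* (3.39), *Cldn7* (3.36), *Ascl2* (3.29), *Cdx2* (2.89), *Wnt3* (2.59), *Cldn6* (2.57), *Cdkn1c* (2.09), *Epcam* (1.67), *Btg2* (1.29) and *Manf* (1.19). Among pluripotency genes it was below 0 for *Prdm14* (-3.68), *Tcl1* (-3.65), *Dppa5a* (-3.01), *Dppa2* (-2.98), *Nr0b1* (-2.44), *Tet2* (-2.35), *Esrrb* (-2.23), *Tdgf1* (-1.81), *Nr5a2* (-1.78), *Fgf4* (-1.59) and *Dppa4* (-1.53). The other negative values were those of *Inhbb* (-3.55), *Plagl1* (-1.35), *Dazl* (-5.21), *Myo1f* (-7.19) and *Stra8* (-11.45). The value of *Stra8*, with -8.46 in ESCs alone, rests on very few reads in NPCs and in part of the ESC libraries. It is no measure of size.

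Over the 4 ESC libraries, the summed level of 2 lists had 1 library far from the others, J/B number 1, at 168 CPM for two-cell-like genes and at 701 CPM for markers of primitive and visceral endoderm (the others 505, 499 and 479 CPM). About 1 in 20 lists would be picked out in this way by chance.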

How the results depend on the processing

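The count of 1323 genes was within 1.5 times of itself with RLE factors (990), library totals (1191), DESeq2 (1396), limma-voom (1675), no low-count filter (1788), means of 1 CPM or more (1282), estimation that was not robust (1429), no cross term (966) and protein-coding genes only (1226). It fell to 861 with length and GC offsets, 556 with a 2-fold minimum and 398 with all 8 libraries, and lay between 0 and 36 without an ESC library, where the remaining cross has 1 library per number, assumed to vary like the NPC libraries. The sign of all 98 named genes called was kept under every alternative run. Each alternative reuses the same libraries, and genes called have 1 sign in both crosses, so the kept sign is no separate check. Only 56 were called with all 8 libraries, 72 without the cross term and 79 of 95 with offsets. Most were not called without an ESC library. RLE factors lost 10 (*Tdgf1*, *Smad7*, *Nodal*, *Pdgfrb*, *Uhrf1*, *Phlda3*, *Aldoa*, *Hspa8*, *Gclm* and *Mir7652*), library totals 7, DESeq2 5 (*Platr5* among them) and no low-count filter 2 (*Dnmt3b* and *Id2*). No paired analysis was possible with the replicate number as a block, because the replicate number is what is compared. The block used is the cross, which pairs the libraries with number 1 and number 2 within each cross.

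The median log2 of core factors was -0.15 with library totals and lay between -0.29 and -0.21 without an ESC library. That of formative genes then lay between 0.93 and 1.62, and that of streak genes between 1.15 and 2.98. Over streak genes with a mean of at least 1 CPM it was 3.28, where fewer genes enter, some of them only through number 2. Without an ESC library, other medians changed sign and lay between -0.074 and 0.157 for FGF-ERK targets, -2.091 and 3.439 for fibroblast markers, -0.227 and 0.431 for blood and endothelial markers, -0.035 and 0.051 for cholesterol synthesis genes, -0.68 and 0.342 for Y-linked genes, -1.025 and 0.33 for primitive and visceral endoderm, -0.134 and 1.626 for neural markers, -0.335 and 0.178 for metal and oxidative response genes, -0.2 and 0.196 for histone genes and -0.167 and 0.251 for small RNA genes. They also did so with a mean of at least 1 CPM for blood and endothelial markers (-0.092) and the ATF4 list (-0.002), and with library totals for cholesterol synthesis genes (0.052), LIF-STAT3 (0.016), glycolysis (0.019), metal and oxidative (0.062) and histone genes (0.064), with offsets for histone genes (0.113), with DESeq2 for fibroblast markers (0.807) and with no cross term for Y-linked genes (0.038). With a prior of 2 CPM, the genes reaching 2-fold were 190 higher and 137 lower in B/J, against 431 and 556 for J/B. The share of variation held by the replicate number was 64.3% to 66.1%. The NPC count of 55 was 0 with the 4 NPC libraries in edgeR, and the stage difference of 223 genes was 0 with limma-voom and without any 1 ESC library. Causes were not tested. At 1 read per 0.036 to 0.0453 CPM, *Kcnk9*, with 3 reads over the 4 ESC libraries, could not be compared.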
